A study of Homo sapiens with 12 samples.

Results

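The net change over a differentiation course was described by comparing the libraries of its last sampled day, day 25, with those of its first, day 10, gene by gene. The members were the 3 libraries labelled day 10 and the 3 labelled day 25, 6 of the 12 libraries in the series, chosen by their labels and not by any measured value. The other 6 libraries, from days 15 and 20, entered the joint fit and were used to follow genes in between. Bulk RNA sequencing was used throughout, with libraries made by ligation-mediated sequencing from total RNA.

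All cells came from H9 (WA09), an established wild-type human embryonic stem cell line that had been kept on mouse embryonic fibroblast feeders, and all libraries carry the same batch label. Cells reached day 10 in APEL2 medium, at the end with VEGF, bFGF, Flt3L, IL-7, SCF and SB431542, and the labels call them haematopoietic progenitors. From day 10 the medium was MEM-α with serum, GlutaMAX, an additive labelled MAP, the Notch ligand DLL4, and SCF, Flt3L and IL-7, and the labels call the day 25 cells mature γδ T cells. Time, medium and cell composition changed together between the groups and cannot be told apart. The labels do not say whether the 3 libraries of a day were separate cultures, so p-values measure the spread between these libraries alone, which may be technical.

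Haematopoietic progenitors are cells that can give rise to erythroid, megakaryocytic, myeloid and lymphoid cells, and which branch they take depends on transcription factors and on the cytokines around them. T-cell development from such progenitors runs through Notch signalling and IL-7, rearrangement of T-cell receptor genes and assembly of the receptor with the CD3 chains on the cell surface. Macrophages, the phagocytes of tissues, are known for their lysosomes, lipid handling, complement and pattern recognition receptors, and secreted proteases.

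Each library held between 27026196 and 39811230 counts, and between 22453 and 24771 genes were counted at least once. Levels are CPM, counts relative to a library size scaled by TMM, and means are given ± SD (n = 3 libraries per day). Folds, log2 fold changes with their standard errors (SE) and adjusted p come from edgeR's quasi-likelihood test with Benjamini-Hochberg adjustment over the 20183 genes tested, and a gene was called at an adjusted p under 0.05. CPM follow gene length, so levels were compared between days and not between genes. In bulk RNA, fewer cells of a type and less RNA per cell cannot be told apart. Positions are from GENCODE release 29 on GRCh38.

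Of the genes tested, 74.5% were called between day 25 and day 10, 38.6% as higher at day 25 and 36.0% as lower, with 25.5% not called. The median log2 fold change over all genes tested was 0.02. These shares and this median are the background for every list below. Large changes leaned towards gain. At 4-fold or more, 3451 genes were higher and 1429 lower, at 16-fold or more 1505 and 397, and at 256-fold or more 235 and 32. Fitted folds depend on the prior count for 536 tested genes, which had 0 counts at day 10 or day 25 but not both. Their part in these counts was not tested. The central range of log2 fold changes, from the 5th to the 95th percentile, ran from -2.49 to 5.02.

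The direction of change went with the level of the gene. Among the 5006 genes with a mean of 1 to 10 CPM over the 6 libraries, 46.8% were higher at day 25 and 27.1% lower. Among the 2093 genes with a mean of 100 to 1000 CPM, 38.6% were higher and 54.7% lower. Genes at least 4-fold higher took 2.16% ± 0.00605 of all counts at day 10 and 27.4% ± 0.0692 at day 25, while genes at least 4-fold lower took 12.3% ± 0.00648 and 1.35% ± 0.00286. Both shares follow from how those genes were chosen and were not tested.

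**Figure D1:**
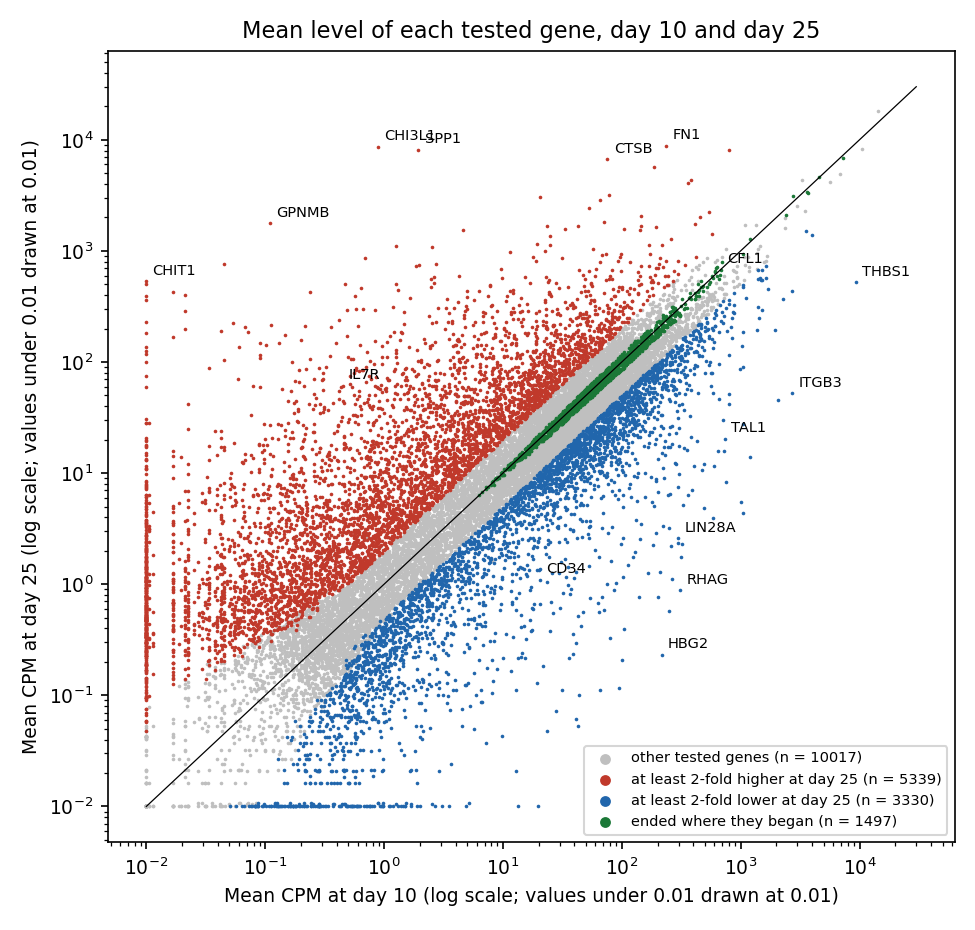
Mean CPM of each tested gene at day 10 (x axis, log scale) and at day 25 (y axis, log scale), with values under 0.01 drawn at 0.01. Red points are the 5339 genes called and at least 2-fold higher, blue points the 3330 called and at least 2-fold lower, green points the 1497 that ended where they began, and the line marks equal levels.

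The label of each day was checked against its defining genes. Of 21 progenitor markers, all tested, 9 were higher at day 25, 9 lower and 3 not called, and their summed level went from 3420 to 3528 CPM across the day 10 libraries to 1708 to 1714 at day 25. CD34, the surface glycoprotein used to isolate progenitors, went from 18.7, 20.7 and 22.3 CPM at day 10 to 0.788, 1.30 and 1.22 at day 25, an 18.4-fold fall. TAL1, a transcription factor of blood stem and erythroid cells, stood at 731, 743 and 750 CPM in the day 10 libraries and at 19.3, 20.7 and 21.2 at day 25 (log2 fold change -5.18, SE 0.038, adjusted p = 9.9e-53). The day 25 libraries lay far below those of day 10 for TAL1, with no overlap. KIT, the receptor for SCF, went the other way, from 50.4, 48.8 and 56.8 CPM to 243, 229 and 237, a 4.55-fold rise. MYB, a transcription factor of dividing progenitors, ended where it began, at 54.6 ± 1.02 and 51.0 ± 1.49 CPM.

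The CD3 chains were at or near 0 counts at both ends. Among 22 T-cell markers, 15 could be tested, of which 8 were higher, 4 lower and 3 not called, and their summed level was 371 to 389 CPM at day 10 and 505 to 513 at day 25. CD3D, a chain of the T-cell receptor complex, had 6 counts in all at day 10 and 0 at day 25, its partner CD3G had 0 counts on both days, and CD3E had 0 at day 10 and 17 at day 25. A count of 0 over the 3 libraries of day 25 allows up to 0.0287 CPM. LCK, the kinase that starts receptor signalling, had 2 counts at day 10 and 14 at day 25. THEMIS had 0 on both days, and the 2 CD8 genes, CD8A and CD8B, had 8 counts and 0 at day 25.

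The γδ receptor genes moved apart from each other. TRGC1, a γ constant gene, rose from 1.69 ± 0.148 to 10.0 ± 0.872 CPM, and TRGC2 rose from 0.717 ± 0.153 to 4.90 ± 0.0444 CPM, though reads of these near-identical genes may be split between them. TRDC, the δ constant gene, stood at 0, 0.125 and 0.203 CPM at day 10 and at 0.221, 0.723 and 0.192 at day 25. It was called as higher (log2 fold change 1.83, SE 0.68, adjusted p = 0.008), but its libraries overlapped between the days. TRDC was not called without library 2 of day 25 (log2 fold change 0.90, adjusted p = 0.26) or without library 1 of day 10 (1.30, adjusted p = 0.053). Of the δ variable genes, TRDV1 had 0 counts on both days and TRDV2 had 2 and 5. Of the 14 γδ receptor genes 7 were tested, with 3 higher, 1 lower and 3 not called. Their summed level went from 4.74 to 5.02 CPM at day 10 to 15.6 to 19.1 at day 25, when TRGC1 and TRGC2 held most of it. Of 15 tested variable, joining and diversity segments of all T-cell receptor genes, 0 were higher, 7 lower and 8 not called.

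Among the T-cell markers that rose are genes that other blood cells also use. IL7R, the IL-7 receptor chain, went from 0.191, 0.753 and 0.405 CPM to 64.3, 58.4 and 60.8. CD4, which macrophages carry as well as helper T cells, rose 16.7-fold from 24.5 ± 1.88 to 407 ± 2.40 CPM. LAT, an adaptor of T cells and platelets, fell 11.8-fold from 303 ± 8.30 to 25.7 ± 2.43 CPM. BCL11B, the transcription factor of T-lineage commitment, had 18 counts at day 10 and 98 at day 25, and ZAP70, the kinase bound to the receptor complex, stayed near 2 CPM with overlapping libraries. Beside these, all 20 macrophage and monocyte markers rose, their summed level going from 297 to 300 CPM at day 10 to 9673 to 9961 at day 25, with none of them at 0 at day 25. The part of macrophage-type cells in the values of IL7R, CD4 and the other T-cell markers was not tested.

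**Figure D2:**
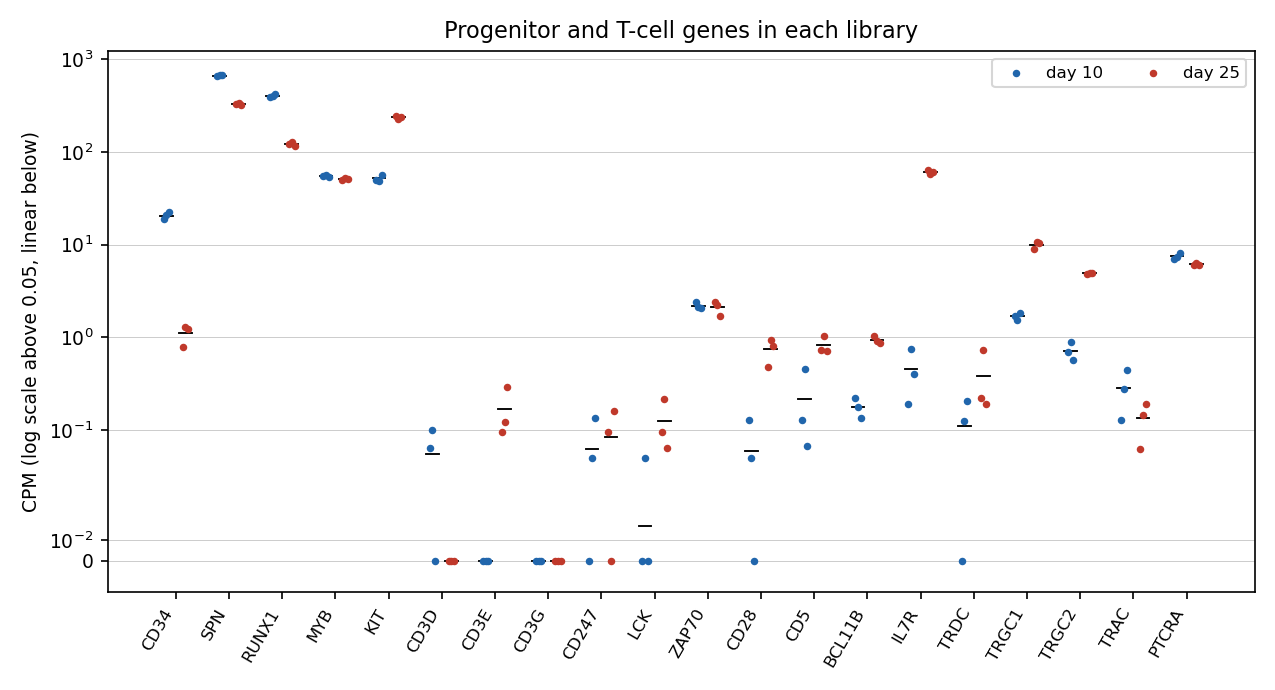
CPM of 20 progenitor and T-cell genes in each library of day 10 (blue) and day 25 (red), on a scale that is logarithmic above 0.05 and linear below, with short lines at the means. CD3D, CD3E and CD3G lie at or near 0 on both days, TRDC overlaps between the days, and IL7R and KIT lie higher at day 25.

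Among the 10 genes with the largest gains in CPM at day 25 were FN1, CHI3L1, SPP1, FTL and MPO. FN1, which encodes the matrix protein fibronectin (chromosome 2, 215360440 to 215436172), stood at 215, 242 and 248 CPM at day 10 and at 8796, 8973 and 8741 at day 25. The 3 day 25 libraries lay close together and far above those of day 10, a 37.6-fold rise. CHI3L1, a secreted chitinase-like protein of activated macrophages (chromosome 1, 203178931 to 203186749), went from 0.286, 1.23 and 1.15 CPM to 8572, 8563 and 8829 (log2 fold change 13.21, SE 0.29, adjusted p = 3.5e-14). SPP1, the secreted phosphoprotein osteopontin (chromosome 4, 87975650 to 87983426), went from 1.91, 1.78 and 2.13 CPM to 8334, 7867 and 8286 (log2 fold change 12.05, SE 0.081, adjusted p = 2.4e-61). The day 10 libraries of CHI3L1 differed among themselves by over 4-fold at about 1 CPM, and those of SPP1 did not. FTL, the ferritin light chain that stores iron, rose 10.1-fold to 8015 ± 252 CPM, and MPO, the peroxidase of neutrophil granules, rose 11.3-fold to 4332 ± 42.0 CPM.

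**Figure D3:**
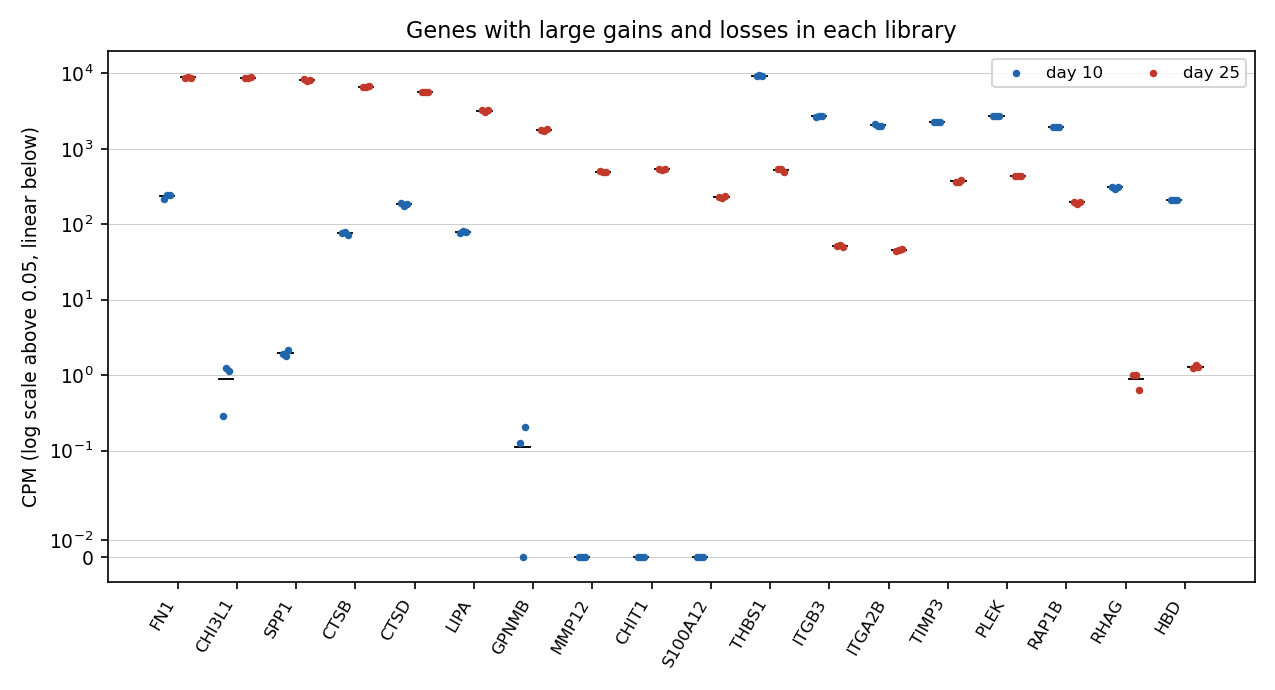
CPM of 18 genes with large gains or losses in each library of day 10 (blue) and day 25 (red), on a scale that is logarithmic above 0.05 and linear below, with short lines at the means. From FN1 to S100A12 the day 25 libraries lie above those of day 10, and from THBS1 to HBD they lie below. The genes were chosen for large changes in these libraries, so the separation of the days follows from the choice.

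Lysosomal genes rose together. All 24 lysosomal proteases and hydrolases were higher at day 25 (median log2 fold change 2.58), and their summed level went from 1860 to 1906 CPM to 23250 to 23698. CTSD, the aspartic protease cathepsin D (chromosome 11, 1752752 to 1764573), stood at 192, 177 and 186 CPM and then at 5640, 5749 and 5719. LIPA, the lysosomal acid lipase, rose 40.6-fold from 78.8 ± 3.22 to 3202 ± 67.6 CPM. CTSS, a cysteine protease of antigen-presenting cells, rose from 2.55 to 1083 CPM. Of 19 tested subunits of the vacuolar proton pump, which acidifies lysosomes, 17 rose, 1 fell (ATP6V0A2, log2 fold change -0.58) and 1 was not called. ATP6V0D2, a pump subunit of osteoclasts and macrophages, went from 0.180 ± 0.180 to 44.5 ± 1.58 CPM. Proteasome subunits, the other main route of protein breakdown, went down in 32 of 37 tested (median -0.56), while PSMB9, an interferon-inducible subunit, rose from 2.74 to 12.1 CPM.

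Lipid handling and phagocyte genes rose with them. All 17 tested genes for lipid handling of macrophages were higher (median 4.79), among them APOE, the lipid carrier apolipoprotein E, with 68.4, 65.7 and 62.1 CPM at day 10 and 2867, 2853 and 2804 at day 25. LPL, a secreted lipase, rose 48.7-fold, and GPNMB, a membrane glycoprotein of lipid-loaded macrophages, went from 10 counts at day 10 to 1777 ± 37.9 CPM. Each of the 6 subunits of the phagocyte NADPH oxidase, which makes superoxide, rose, with CYBB going from 11.5 ± 0.532 to 979 ± 3.96 CPM. Genes for making cholesterol went mainly the other way, with 16 of 22 lower, 2 higher and 4 not called (median -0.59). SQLE, which carries out an early oxygenation step, fell 4.15-fold, whereas CYP51A1 rose 1.61-fold.

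Most secreted protease and matrix genes rose, though each list held at least 1 gene that fell. Of 15 tested metalloproteinases and inhibitors, 14 rose, 6 of them from 0 counts at day 10. MMP9, gelatinase B (chromosome 20, 46008908 to 46016561), went from 19.0, 19.3 and 19.3 CPM to 1127, 1186 and 1177. MMP7 had 0 counts at day 10 and 360 ± 6.04 CPM at day 25, at least 12125-fold higher against the floor of 3 counts over the day. TIMP3, a matrix-bound inhibitor of these proteases, was the member that fell, from 2291, 2291 and 2286 CPM to 365, 365 and 386. Among 41 tested collagen chains, 32 rose, 4 fell and 5 were not called, with COL6A1 rising 13.6-fold to 922 ± 9.08 CPM. COL24A1 fell 126-fold, from 299 ± 6.73 to 2.34 ± 0.291 CPM.

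Sensing and restraint of immune cells rose on both sides. In the Toll-like receptor pathway 15 of 18 genes were higher and 3 lower. TLR4, the receptor for bacterial lipopolysaccharide, rose from 10.5 to 176 CPM, and the kinases IRAK1 and IRAK4 fell by 0.19 and 0.29 on the log2 scale, with IRAK1 inside the bound for genes that ended where they began. Of 20 leukocyte inhibitory receptors 19 rose and 1, LAG3, was not called (median 5.25, or 5.13 with members at 0 counts set to their bounds). HAVCR2, an inhibitory receptor of T cells and macrophages, rose from 0.580 to 297 CPM. LILRB1, an inhibitory receptor for MHC class I, had 0 counts at day 10 and was at least 277-fold higher. Complement genes rose in 17 of 21, including C5AR1, the receptor for C5a, from 2.61 ± 0.0512 to 576 ± 7.36 CPM, and fell in 4, including CD46, a membrane protein that shields cells from complement, by 0.47 on the log2 scale. LAG3, chosen after its value was seen, was called as lower without library 2 of day 10 (adjusted p = 0.037), library 2 of day 25 (0.042) or libraries 1 or 2 of day 15 (0.04 and 0.047).

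Antigen presentation rose too. Of 20 dendritic cell and MHC class II genes, 19 were higher and 1 was not called. HLA-DMB, which loads peptides onto class II molecules, went from 0.254, 0.125 and 0.338 CPM to 113, 103 and 107. CD74, the invariant chain, rose from 15.2 to 586 CPM. B2M, the light chain of MHC class I that is often used as a reference gene, rose 4.42-fold from 453 ± 11.6 to 2005 ± 37.2 CPM. Chemokine genes changed in both directions, 17 of 26 higher and 6 lower. CXCL16 rose from 0.487 to 296 CPM, and CXCL6, a neutrophil attractant, fell from 22.9 to 1.86 CPM.

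Granulocyte genes rose alongside the macrophage genes. All 17 neutrophil granule genes were higher (median 8.42), and their summed level went from 490 to 516 CPM to 13010 to 13151. CAMP, the antimicrobial peptide precursor of secondary granules, had 0 counts at day 10 and 129, 137 and 143 CPM at day 25, at least 4582-fold higher. S100A9, a calcium-binding alarmin, rose from 4.59 ± 0.195 to 1541 ± 14.0 CPM. The 10 eosinophil genes all rose (median 5.74), as did the 13 tested mast cell and basophil genes (median 6.36), here with FCER1G, a shared Fc receptor chain, at 66.9 and 225 CPM.

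Transcription factors and receptors changed in step with these lists. All 18 myeloid transcription factors rose (median 4.32). CEBPB, a factor of granulocytes and macrophages, went from 15.5, 14.6 and 14.4 CPM to 238, 249 and 242, with no overlap between the days. Of 15 erythroid and megakaryocytic factors 13 fell and 2 rose (median -2.69). GFI1B, a repressor needed for platelet and red cell formation, stood at 369, 356 and 365 CPM and then at 6.21, 6.41 and 6.40, while GATA2, shared with mast cells, rose 1.23-fold. Among 12 growth factor receptors of myeloid and erythroid cells, 10 rose and 2 fell. CSF1R, the macrophage colony-stimulating factor receptor, rose 55.4-fold to 1374 ± 15.5 CPM. Receptors for the factors used in the culture rose in 9 of 10, with KDR, a VEGF receptor, falling 3.73-fold and FLT3, the receptor of Flt3L, going from 0 counts to 0.749 ± 0.0233 CPM, at least 25.2-fold higher.

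**Figure D4:**
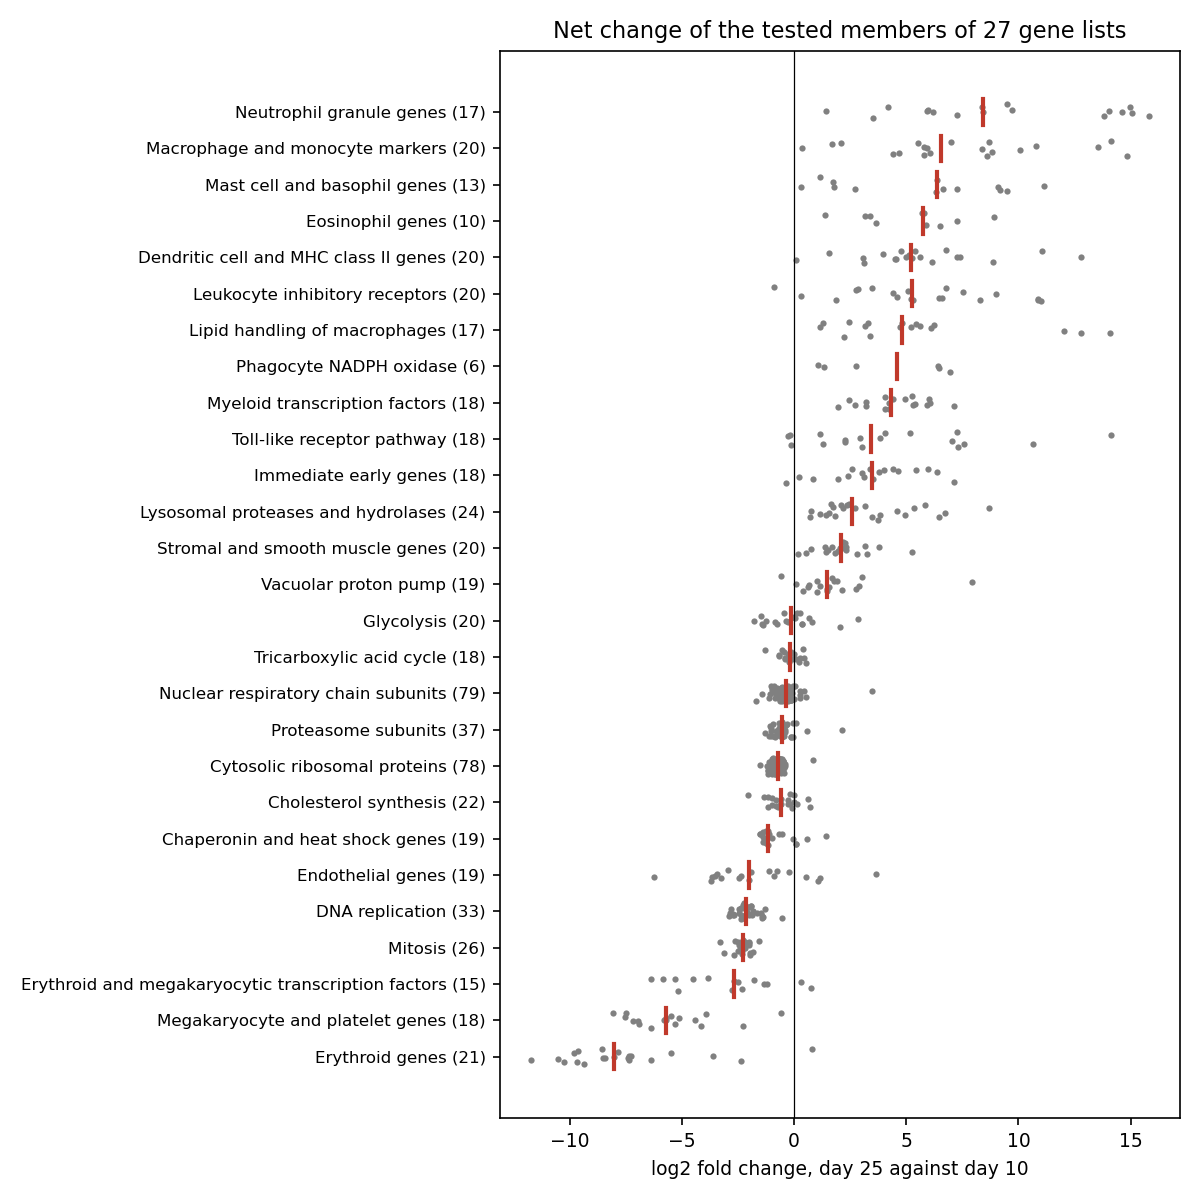
Log2 fold change from day 10 to day 25 (x axis) of every tested member of 27 gene lists, with the number of tested members in brackets, grey points for genes and red bars for medians. Members with 0 counts on a day are drawn at their fitted values, which depend on the prior count. Lists of granulocyte, macrophage and lysosomal genes lie to the right of 0, and those of DNA replication, mitosis, platelet and erythroid genes to the left.

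Megakaryocyte and platelet genes fell from high levels. All 18 fell (median -5.70), and their summed level went from 18999 to 19159 CPM to 740 to 769. THBS1, the adhesive glycoprotein thrombospondin 1 of platelet granules (chromosome 15, 39581079 to 39599466), stood at 9217, 9567 and 9347 CPM and then at 533, 535 and 500 (log2 fold change -4.16, SE 0.026, adjusted p = 1.2e-53). Transcripts of both chains of the fibrinogen receptor of platelets fell. ITGB3 fell 51.7-fold from 2702 ± 50.5 to 52.2 ± 1.66 CPM and ITGA2B fell 45.2-fold from 2056 ± 64.1 to 45.5 ± 1.91 CPM. RAP1B, a small GTPase that activates this integrin, fell from 1963 to 196 CPM, and PLEK, the protein kinase C substrate pleckstrin, from 2704 to 437 CPM. SLC37A1, a sugar-phosphate exchanger, fell 85.0-fold, from 1190, 1195 and 1226 CPM to 14.2, 14.8 and 13.3.

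Erythroid genes fell in 20 of 21 tested (median -8.03, or -7.40 with members at 0 counts set to their bounds), and their summed level went from 1619 to 1660 CPM to 683 to 712. RHAG, a gas channel of the red cell membrane (chromosome 6, 49605158 to 49636884), went from 315, 297 and 316 CPM to 1.01, 0.989 and 0.640. HBD, the δ-globin gene, fell 162-fold from 211 ± 2.59 to 1.29 ± 0.0607 CPM. KLF1, the erythroid master regulator, fell 82.3-fold to 0.564 ± 0.0964 CPM. TFRC, the transferrin receptor, was the erythroid list's member that rose, 1.73-fold to 678 ± 15.0 CPM, and dividing cells and macrophages also use it. At day 25 TFRC held nearly all of the list's summed level.

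Endothelial genes fell in 14 of 19 and rose in 4, with 1 not called. ESAM, a junction molecule of endothelium and platelets, fell from 250 to 3.22 CPM, and PECAM1, an adhesion molecule of both, from 770 to 192 CPM. ENG, a TGF-β co-receptor found on endothelium and on macrophages, rose 12.5-fold from 52.7 ± 1.13 to 661 ± 7.38 CPM.

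Proliferation genes fell without exception in both lists. All 33 DNA replication genes (median -2.13) and all 26 mitosis genes (median -2.27) were lower at day 25. MKI67, a marker of cycling cells, stood at 774, 862 and 869 CPM and then at 203, 215 and 202. MCM7, a subunit of the replicative helicase, fell 5.51-fold from 548 ± 2.52 to 99.5 ± 2.05 CPM, and TOP2A, the topoisomerase of dividing cells, fell 3.96-fold. Among 7 cyclin-dependent kinase inhibitors 4 rose, including CDKN2B, 19.1-fold, and CDKN1A, 2.82-fold to 225 ± 7.39 CPM, and 3 fell, including CDKN2D from 142 to 21.1 CPM. The falls in these lists stood beside those of the megakaryocyte and erythroid lists, and their part in them was not tested.

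Genes of the embryonic and fetal state changed in both directions, while the summed level of each list here fell. Pluripotency genes together went from 670 to 692 CPM at day 10 to 48.9 to 55.9 at day 25. The LIN28 axis went from 2719 to 2745 CPM to 862 to 883, and imprinted growth genes from 1560 to 1587 to 564 to 649. Of 11 tested pluripotency genes 3 were higher, 6 lower and 2 not called, of 8 genes of the fetal LIN28 axis 1 was higher, 6 lower and 1 not called, with 3 inside the bound for genes that ended where they began, and of 11 imprinted growth genes 4 were higher, 6 lower and 1 not called. DNMT3B, the de novo DNA methyltransferase of pluripotent cells, went from 196, 206 and 200 CPM to 7.22, 8.27 and 4.93. LIN28B, an inhibitor of let-7 maturation, fell 5.95-fold, and DLK1, an imprinted growth regulator of fetal cells, fell 11.7-fold from 1049 ± 18.4 to 89.7 ± 4.21 CPM. DLK1 held most of the imprinted list's summed level at day 10, so the fall of that sum was mainly its own. HMGA2, a let-7 target, rose 1.75-fold from 56.3 ± 0.586 to 98.6 ± 0.600 CPM. Of 21 polycomb and DNA methylation genes 14 fell, DNMT1 among them, and 6 rose, CBX7 from 4.00 to 12.8 CPM among them. H19, an imprinted RNA, varied among libraries, with 26.3, 77.2 and 42.7 CPM at day 10 and 61.1, 121 and 136 at day 25, and was not called (adjusted p = 0.061). H19 was called as higher without library 2 of day 10 (adjusted p = 0.019) or library 1 of day 25 (adjusted p = 0.029), and with DESeq2 (adjusted p = 0.02).

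Most nuclear genes of translation and respiration fell. Of 78 tested cytosolic ribosomal protein genes 77 fell (median -0.73), and RPL39L, a low copy related to RPL39, rose from 1.42 to 2.57 CPM. Their share of all counts was 3.94% ± 0.0765 at day 10 and 2.15% ± 0.0200 at day 25 (two-sided exact permutation test, p = 0.1, the smallest that 3 against 3 libraries allow). Mitochondrial ribosomal proteins fell in 69 of 77 and rose in 3, by up to 2.12 on the log2 scale. Nuclear subunits of the respiratory chain fell in 66 of 79 (median -0.38) and rose in 6, by up to 3.47. Of the 13 mitochondrially encoded genes 3 were higher, 4 lower and 6 not called. Transcripts made from mitochondrial DNA took 5.45% ± 0.263 of counts at day 10 and 5.40% ± 0.243 at day 25 (exact permutation p = 1.0), with overlapping libraries. Chaperonin and heat shock genes fell in 14 of 19, HSPD1 from 577 to 201 CPM.

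Glycolysis split within its list, with 6 genes higher, 10 lower and 4 not called. HK2, an inducible hexokinase, rose 7.30-fold to 221 ± 7.30 CPM and PKM, a pyruvate kinase, rose 1.27-fold, while LDHB, a lactate dehydrogenase subunit, fell 3.43-fold from 852 ± 45.8 to 248 ± 12.0 CPM. SLC2A3, a glucose transporter of platelets and neurons, fell by 1.48 on the log2 scale. Genes often used as references were not fixed points. Of 26 such genes 8 rose, 15 fell and 3 were not called, and 5 met the bound for genes that ended where they began. ACTB fell by 0.37 and GAPDH by 0.44 on the log2 scale.

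Acute response genes differed by family. Of 18 immediate early genes 16 rose (median 3.46). EGR1, a growth factor response gene, rose 11.5-fold from 46.7, 53.1 and 46.0 CPM to 552, 566 and 561, and FOS, a subunit of the AP-1 factor, rose from 7.81 to 483 CPM. JUND, another AP-1 subunit, fell by 0.36 on the log2 scale. Interferon-stimulated genes were divided, 8 higher and 9 lower, with ISG15 falling from 212 to 26.5 CPM and IFI44 rising from 2.22 to 17.0 CPM. The Notch list also divided, 8 higher and 8 lower of 19, near the 38.6% and 36.0% of all genes tested. NOTCH2 rose from 64.4 to 303 CPM, and DLL4, the ligand given in the medium as protein, fell as a transcript from 11.6 to 0.871 CPM.

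Most markers of tissues outside blood rose. Stromal and smooth muscle genes rose in 19 of 20 (summed level 2101 to 2114 CPM, then 17572 to 17815), and FN1, described above, holds a large part of the day 25 sum. Liver and yolk sac genes rose in 16 of 18, epithelial genes in 11 of 14 and neural genes in 11 of 11 tested. Cardiac and skeletal muscle genes rose in 9 of 12 and fell in 1, but their summed level went from 136 to 149 CPM to 37.9 to 39.2. SERPINA1, an antiprotease of liver and of macrophages, rose from 0.720 to 124 CPM. CDH1, the epithelial cadherin, went from 0.953, 0.929 and 0.608 CPM to 28.5, 28.7 and 30.0. DCX, a microtubule protein of young neurons, rose from 0.463 to 21.5 CPM. The part of cells of these tissues in the values of the matrix and collagen genes was not tested. Position genes of the HOX clusters rose in 7 of 11 (HOXA), 6 of 7 tested (HOXC) and 6 of 6 tested (HOXD), at low levels. The summed level of HOXA went from 8.18 to 11.5 CPM to 23.0 to 27.8, and that of HOXD from 2.09 to 3.06 to 11.9 to 14.8. In HOXB 4 of 10 rose, near the 38.6% of all genes tested, HOXB9 fell and 5 were not called.

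Large gene families not chosen by lineage also changed in both directions. Numbered zinc finger genes, mostly DNA-binding repressors, fell in 258 of 475 tested and rose in 76 (median -0.35). Solute carriers, the transporters of small molecules, rose in 170 of 316 and fell in 80 (median 0.64, or 0.61 with members at 0 counts set to their bounds). SLC6A7, a proline transporter, had 0 counts at day 10 and 15.5, 14.0 and 14.4 CPM at day 25, at least 493-fold higher. Potassium channel genes rose in 40 of 75 and fell in 17, with KCNAB2, a β subunit, rising from 25.1 to 405 CPM.

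Genes present at 1 end of the course alone were mainly gains. With 0 counts in the 3 libraries of day 10 and at least 1 count at day 25 there were 2934 genes, 143 of them at 1 CPM or more. With the reverse pattern there were 1563 genes, 15 of them at 1 CPM or more. CHIT1, the chitinase of lipid-laden macrophages, reached 537, 530 and 535 CPM, at least 17972-fold higher, and MMP12, macrophage elastase, reached 508, 495 and 495 CPM, at least 16807-fold higher. MSR1, a scavenger receptor, was at least 3940-fold higher at 117 CPM. AHSP, the chaperone of α-globin, went from 4.93 CPM to 0 counts, at least 172-fold lower, and HBB, adult β-globin, from 1.44 CPM to 0 counts, at least 50.1-fold lower.

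Promoters of 4 genes with large net changes are shown because they hold a match to a short motif, each as the 250 bases before the transcription start, 5′ to 3′ on the gene's strand, from RefSeq on GRCh38.p14. They are CTSD (chr11:1763928-1764177, minus strand), GPNMB (chr7:23246525-23246774, plus strand), CPA3 (chr3:148865046-148865295, plus strand), a mast cell carboxypeptidase, and LY6G6F (chr6:31706616-31706865, plus strand), a platelet surface protein. They do not stand for their lists, since the same window of LIPA, SPP1, THBS1 and ITGA2B held no match to any of the 4 motifs below. Capitals mark every match on either strand to the motifs of MITF and TFEB, of AP-1, of GATA factors and of PU.1 and its relatives. The MITF and TFEB motif was searched as TCACGTG. For AP-1 the letters were TGANTCA, where N is any base. GATA factors were searched as AGATAA. The motif of PU.1 and related ETS factors was GAGGAAG. None of these motifs contains another.
CTSD: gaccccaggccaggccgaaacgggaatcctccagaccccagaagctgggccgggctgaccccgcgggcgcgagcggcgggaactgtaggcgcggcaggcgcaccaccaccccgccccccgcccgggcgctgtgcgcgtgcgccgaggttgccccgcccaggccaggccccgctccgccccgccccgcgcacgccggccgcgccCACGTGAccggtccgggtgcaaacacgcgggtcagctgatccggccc
GPNMB: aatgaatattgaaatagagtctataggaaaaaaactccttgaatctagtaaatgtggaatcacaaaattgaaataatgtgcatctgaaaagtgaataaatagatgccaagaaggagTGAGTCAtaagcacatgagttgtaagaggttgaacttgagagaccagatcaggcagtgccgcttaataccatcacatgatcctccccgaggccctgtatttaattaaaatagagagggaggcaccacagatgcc
CPA3: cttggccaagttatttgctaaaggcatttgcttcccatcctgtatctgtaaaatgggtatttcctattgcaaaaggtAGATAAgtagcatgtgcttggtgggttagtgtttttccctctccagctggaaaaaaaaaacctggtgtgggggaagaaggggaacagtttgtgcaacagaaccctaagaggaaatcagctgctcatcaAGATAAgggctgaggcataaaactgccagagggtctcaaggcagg
LY6G6F: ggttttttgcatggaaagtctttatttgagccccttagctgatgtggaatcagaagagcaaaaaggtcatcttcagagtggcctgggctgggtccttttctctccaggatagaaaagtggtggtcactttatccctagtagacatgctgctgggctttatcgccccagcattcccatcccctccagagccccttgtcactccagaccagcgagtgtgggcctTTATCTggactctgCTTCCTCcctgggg
AGATAA thus stands in the promoter of CPA3, which rose from 8 counts at day 10 to 186 CPM, and on the other strand in that of LY6G6F, which went from 252, 248 and 252 CPM to 0.473, 0.530 and 0.704. The match in CTSD begins 47 bases before the RefSeq start. The GENCODE interval of CTSD given above reaches further upstream and covers the whole window.

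Over whole sets, promoters from 250 bases before to 50 after the start were read for 14030 of the 20183 tested genes, matched by symbol. AGATAA or its complement was in 6.27% of them, in 8.54% of the 2329 promoters of genes at least 4-fold higher, in 11.1% of the 823 of genes at least 4-fold lower, in 5.11% of the 1252 of genes that ended where they began, and in 10.5% of all 27305 promoters in the table. TGANTCA was in 5.23% of tested, 8.37% of higher, 5.35% of lower, 3.67% of ended and 7.76% of all promoters. GAGGAAG was in 14.5%, 17.2%, 16.2%, 13.1% and 13.4%, in the same order. TCACGTG was in 5.25% of tested promoters, 3.74% of higher, 3.52% of lower, 7.27% of ended and 3.82% of all. GGGCGG, bound by SP1 and related factors, was in 64.4% of tested promoters, 53.9% of higher, 53.5% of lower and 75.1% of ended, beside 44.6% of all. The share of G and C was 63.2% in tested, 61.3% in higher, 60.6% in lower and 65.4% in ended promoters. These motif shares are a description with no test, the part of base composition in them was not tested, and a match is not shown to be bound.

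Genes that ended where they began were defined by an interval, since a missed threshold does not show equal levels. A gene counted if the 95% interval of its day 25 level lay between 20% below and 25% above its day 10 level and its mean was 1 CPM or more. This held for 1497 genes, 7.42% of those tested, of which 532 were still called as different by a small amount. Among named genes, ARID3A was near the edge inside the bound, with a log2 fold change of -0.22 (SE 0.038), and CDKN1C was outside it at 0.21 because its interval was wider (SE 0.081). CDKN1C was called as higher, but not without library 2 of day 10 (adjusted p = 0.12) or library 3 of day 25 (adjusted p = 0.11). By level the set ran up to the mitochondrial transcripts, MT-ND4 with 7255 ± 490 and 6837 ± 435 CPM, and to CFL1, the actin-severing protein cofilin, with 695, 665 and 674 CPM at day 10 and 683, 638 and 711 at day 25. SRRM2, a splicing factor, stood at 1045 ± 24.8 and 943 ± 32.1 CPM, and GNAS, the stimulatory G protein subunit, at 1196 ± 25.6 and 1275 ± 30.7 CPM. OGDH and UQCRC1, of mitochondrial metabolism, were also in the set.

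The middle of the course was read from day 20 against day 15. These days share no library with days 25 and 10, but they share the joint fit and its estimate of the spread, so the comparisons are not independent. Among all genes tested 76.6% were called between day 20 and day 15, and among the 15260 with a mean of 1 CPM or more over days 10 and 25 the share was 84.4%. Of the genes that ended where they began 1288 were called (86.0%), close to that background. At 2-fold or more, 45.9% of all genes tested were called, 43.9% of those at 1 CPM or more and 24.6% of the ended genes. The median absolute log2 fold change of this step was 0.54 in the ended genes and 0.87 in those at 1 CPM or more. These sets were not matched for level. At a mean of 1 to 10 CPM lay 27 of the 1497 ended genes but 5006 of the 15260. The part of level and of interval width in these differences was not tested. The direction of this step depended on scaling and on the filter for low counts, and 1 scaling moved it by more than the median change of the ended genes. With TMM, 461 of the ended genes were higher at day 20 and 827 lower, whereas with library-size scaling, which moved the median change of all genes by 0.62 on the log2 scale, 904 were higher and 352 lower. With TMM and no filter, 639 were higher and 635 lower.

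Large round trips went up at day 15 and came back. IFIT3, an interferon-induced antiviral gene (chromosome 10, 89327894 to 89340971), stood at 25.2, 27.1 and 31.4 CPM at day 10, at a mean of 1673 CPM at day 15 and 61.0 at day 20, and at 29.3, 27.9 and 30.1 at day 25. Its libraries at the ends overlapped. PPP1R15A, a phosphatase subunit of the stress response, had means of 105, 1651, 119 and 101 CPM, and SMOX, a polyamine oxidase, 33.7, 729, 36.2 and 34.5 CPM. FRMD4B, a scaffold protein, went from 56.2 to 1417, 54.8 and 64.8 CPM. From day 15 to day 20 IFIT3 fell 27.4-fold, FRMD4B 25.9-fold and SMOX 20.1-fold, each far beyond the shift between scalings.

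Other genes dipped and recovered. PTGR1, a reductase of prostaglandins and leukotrienes, stood at 26.6, 26.3 and 27.7 CPM at day 10 and at a mean of 27.03 at day 25, with means of 3.94 at day 15 and 16.4 at day 20. COL2A1, the collagen of cartilage, had means of 50.3, 12.5, 59.3 and 44.7 CPM. SHMT1, which supplies folate-bound carbon units, went through 36.2, 7.72, 24.9 and 34.0 CPM. MYH10, a non-muscle myosin, stood at 142 ± 2.78 CPM at day 10, 38.2 at day 15, 162 at day 20 and 135 ± 3.44 at day 25. From day 15 to day 20 MYH10 rose 4.25-fold and PTGR1 4.14-fold. IQGAP3, a scaffold of dividing cells, had means of 59.0, 15.4, 40.1 and 54.2 CPM, whereas all genes of the mitosis list were called as lower at the end. IQGAP3 was itself called as slightly lower under some settings. These were library-size scaling (log2 fold change -0.20, edgeR adjusted p = 0.0046), limma-voom (adjusted p = 0.042), the compared days alone, and leaving out library 1 of day 10 (edgeR adjusted p = 0.024).

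**Figure D5:**
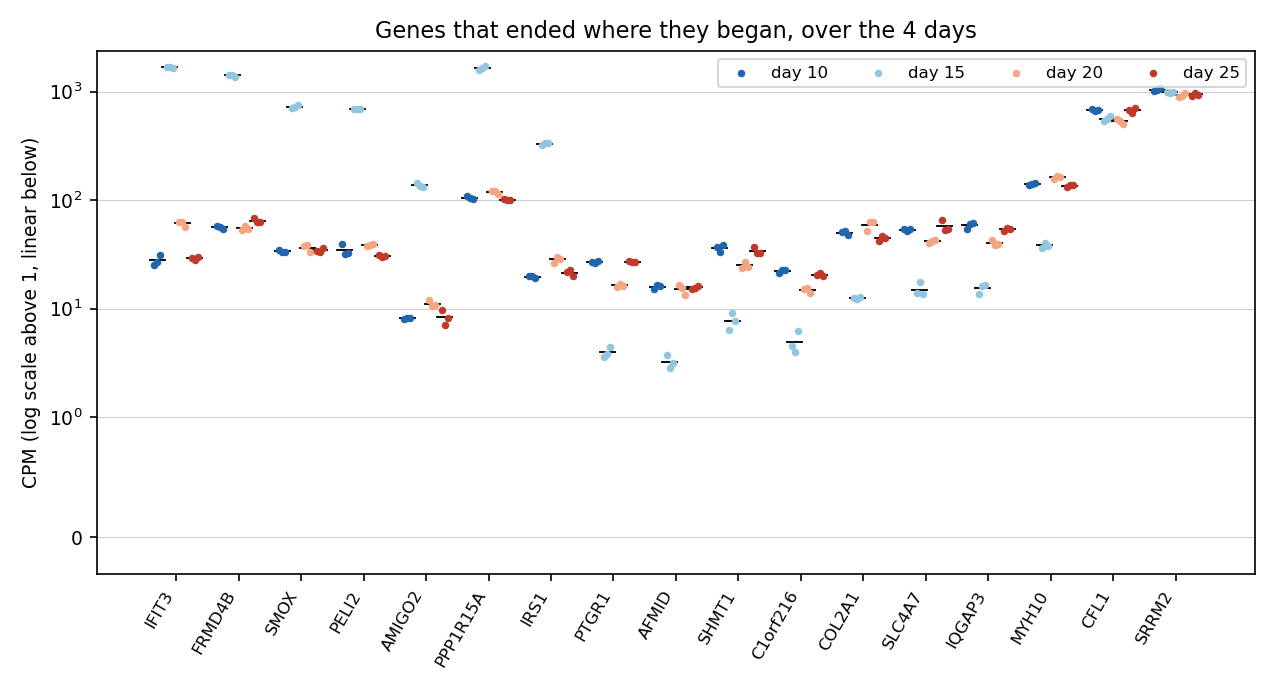
CPM of 17 genes that ended where they began, in each library of days 10, 15, 20 and 25, on a scale that is logarithmic above 1 and linear below, with short lines at the means. IFIT3 to IRS1 stand higher at day 15 than at either end, PTGR1 to MYH10 stand lower at day 15, and CFL1 and SRRM2 change little.

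For genes with a large net change, the middle step pointed mainly the same way. Of the 3451 genes at least 4-fold higher at day 25, 73.3% were called as higher and 8.58% as lower between day 15 and day 20, where 40.6% and 36.0% of all genes were. Of the 1429 genes at least 4-fold lower, 71.5% were called as lower and 13.2% as higher. The median log2 fold changes of this step were 1.68 for the net gains and -2.76 for the net losses. Under library-size scaling the log2 fold changes of this step moved up by the median shift given above, and of all genes 11719 were called as higher and 4530 as lower, beside 8197 and 7271 with TMM.

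Some net values hide a peak in between. EPX, eosinophil peroxidase (chromosome 17, 58192737 to 58205174), stood at 1.05, 1.03 and 1.28 CPM at day 10 and at 169, 168 and 181 at day 25, with means of 3394 CPM at day 15 and 1719 at day 20. PRG2, the eosinophil major basic protein, had means of 103, 4045, 2551 and 270 CPM, so that its net rise was 2.62-fold. CSF2RB, the receptor chain shared by IL-3, IL-5 and GM-CSF, had means of 73.9, 489, 439 and 240 CPM. PTCRA, the pre-T-cell receptor α chain, had means of 7.48, 183, 1.65 and 6.11 CPM, a net log2 fold change of -0.29 that was called by edgeR but not by limma-voom (adjusted p = 0.068) or with the compared days alone (adjusted p = 0.061). AFP, the fetal serum protein of yolk sac and liver, had means of 11.3, 53.5, 419 and 83.3 CPM, and RD3L went through 0.831, 35.6, 0.141 and 0 CPM.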

How the data were processed

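The values the authors deposited are raw counts for each gene ID, not normalized. Column names end like those of sorted alignments, per the file headers. GRCh38 is the build named in the submitters' processing notes. The aligner, counter, annotation and strand setting were not given in the sources used here, so overlapping and antisense genes, and near-identical copies, cannot be told apart. Of 36601 gene IDs, 25301 were given a symbol from a table of gene names, and the 11300 others held 0.442% of counts and stayed in the test.

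Counts from all 12 libraries entered 1 edgeR 4.0.16 fit in R 4.3.3 (filterByExpr with a minimum count of 10, TMM, robust glmQLFit, no covariates). The common biological coefficient of variation was 6%. Libraries were grouped by the labelled day, and all were kept. A fold against a day with 0 counts is a lower bound set at 3 counts over that day's libraries, 0.0297 CPM at day 10 and 0.0287 at day 25, which covers counting error alone. Intervals are Wald intervals from the same fit. On data simulated for day 25 against day 10 (17436 genes fitted) they covered the true change in 95.3% of genes. The test found 78.7% of 61 genes simulated with a 1.5-fold change, 86.7% of 60 with 2-fold and 98.2% of 56 with 4-fold. Of 167 calls in the simulation 7.2% were false. Few genes changed in the simulation, whereas 74.5% of genes tested were called in the data. The simulation therefore does not show how intervals, test or scaling perform under so broad a change. Shares of counts were compared by exact permutation over the 20 ways to divide 6 libraries into equal groups.

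The members, the 66 gene lists and the motifs were chosen with earlier results of these data known, so counts over a list are descriptions. Named genes were, per list, the 4 with the highest mean and the largest rise and fall at 1 CPM or more. Added to them were the 10 largest CPM gains and losses, the 10 largest fold rises and falls at 10 CPM or more, the 10 highest and the 8 most raised and 8 most lowered in between among genes that ended where they began, and the 8 highest genes with 0 counts on either day. Every progenitor, T-cell and T-cell receptor gene was also taken. The text leaves out some genes that the rule takes, and a few results are not reported here. Promoters came from RefSeq. Alternatives were DESeq2 1.42.0 and its size factors, library-size scaling, limma-voom (limma 3.58.1), scaling without mitochondrial, ribosomal and haemoglobin genes, no filter and a stricter filter, a replicate block, the compared days alone, thinned libraries, stricter calls, other bounds and leaving out each library. Figures were drawn with matplotlib 3.10.9 (Python 3.11.15), from tables made with pandas 2.3.3 and numpy 2.4.6.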

Additional observations from a re-analysis of the deposited data

How the results depend on the processing

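With each alternative the counts of genes higher and lower at day 25, at any size and at 2-fold or more, stayed within 1.5 times those reported. Leaving out each of the 12 libraries gave 7630 to 7986 genes higher, 6912 to 7300 lower, 5305 to 5519 higher by 2-fold or more, 3216 to 3373 lower by 2-fold or more, and 1306 to 1520 that ended where they began, of which 1121 to 1287 were called between days 15 and 20, 324 to 374 of them by 2-fold or more. The replicate block gave 7705 higher, 7168 lower and 1463 ended. Libraries of days 10 and 25 with the same number deviated together hardly at all (correlations 0.006, 0.013 and 0.016), so the numbers were not taken to pair them. How many genes ended where they began depends on the bound by construction: a bound of 1.5-fold gave 3714, of which 3156 were called between days 15 and 20 and 972 by 2-fold or more, and a bound of 1.1-fold gave 149, 128 and 41. Library-size scaling gave 1383 ended genes, of which 1135 were among the 1497 reported (75.8%), and it gave 7413 genes higher and 7814 lower.

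Of 138 named genes compared under 22 settings, none reversed while called, and 15 crossed the threshold in at least 1 setting. TRDC was not called without library 2 of day 25 (log2 fold change 0.90, adjusted p = 0.26 with edgeR) or without library 1 of day 10 (1.30, adjusted p = 0.053), and over its other settings it was called. PTCRA was not called with limma-voom (adjusted p = 0.068) or with the compared days alone (adjusted p = 0.061). MYB was called as lower with library-size scaling (-0.18, adjusted p = 0.003, edgeR). H19 was called as higher with DESeq2 (adjusted p = 0.02) and without library 2 of day 10 or library 1 of day 25. LAG3 was called as lower under 8 settings. The others that crossed were CDKN1C, CFL1, GNAS, IFIT3, IQGAP3, IRS1, MT-ND4, MYH10, OGDH and PPP1R15A. Medians of the progenitor, T-cell and receptor lists moved with which low genes were tested and are not given.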

Other observations

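By annotated type, 42.7% of 15917 tested protein-coding genes were higher at day 25 and 38.3% lower. Among 1462 long intergenic RNAs these shares were 26.3% and 30.4%, and among 43 RNAs made from bidirectional promoters 14.0% and 53.5%. Without knowing whether counting used strand, reads of the last group and of their partner genes cannot be told apart.

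Core histone genes, which mostly lack a poly(A) tail, split into 15 higher, 13 lower and 19 not called of 47 tested, while all replication genes fell. H2AC6 had means of 11.3, 1366, 37.2 and 28.4 CPM over the 4 days, and H2BC21 5.39, 574, 28.2 and 13.9 CPM.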
